A study of Mus musculus with 3 samples.

Results

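The transcripts of the mitochondrial genome were taken as every annotated gene whose symbol starts with mt-, which gave 37 of 55536 genes. They comprise 13 mRNAs, 2 rRNAs and 22 tRNAs, all on chromosome M of the mm10 assembly. They were followed in 3 libraries of total RNA after ribosome depletion, from the cytosol of macrophages grown out of bone marrow (BMDM, primary cells) of C57BL/6J mice. The labels place all 3 at 0 minutes of lipid A at 100 ng/ml; lipid A is the membrane anchor of bacterial lipopolysaccharide, which the receptor TLR4 recognises. The 3 libraries are biological replicates 1, 2 and 3 of 1 group with no other allele or agent named, so levels could be compared between genes and between libraries and not between treatments. The labels give 1 donor entry for all of them, leave age and sex uncollected, and do not separate cultures from animals, so each SD covers no more than the differences among 3 samples, which may be technical in origin. Whether intact mitochondria were removed from the fraction, and whether reads were counted by strand, is not given in the sources used here.

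The mitochondrial genome is a small circle that encodes core subunits of the respiratory chain and of ATP synthase, together with the rRNAs and tRNAs used to translate them inside the organelle. It is transcribed from both strands as long precursors, which are cut into separate RNAs largely at the tRNAs that lie between the other genes. All other subunits are encoded in the nucleus and imported, and stretches of mitochondrial DNA have also been copied into nuclear chromosomes during evolution. In macrophages the respiratory chain is known for its part in the change of metabolism that follows TLR4 signalling.

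Expected counts over annotated genes summed to between 26318761 and 56290298 per library, lowest in replicate 1 and highest in replicate 3. All 10 macrophage markers reached a TPM (a level per length, scaled to one total per library) of 1 in all 3 libraries, with summed levels of 9799, 7228 and 7598 TPM in replicates 1, 2 and 3. Of the markers of other cell types, 3 of 9 neutrophil genes and 1 of 6 B cell genes reached it, and none of 6 T cell, 6 erythroid, 5 megakaryocyte, 6 fibroblast and 5 osteoclast genes did in every library. Ly6g, Cd3e, Trac and Hba-a1 were at 0 in all 3. The small cytoplasmic RNA genes Rn7s1 and Rn7s2 together took most of the TPM total, which lowers the printed TPM of every other gene and leaves ratios between genes as they are.

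The member sequences that bear on the results are those that the tables share between a mitochondrial gene and a nuclear one. A run of 7 annotated pseudogenes on the minus strand of chromosome 1 (chr1:24611535-24616197, 4663 bases) holds annotated copies, whole or in part, of 7 mRNAs that lie from mt-Co1 to mt-Nd4 in the mitochondrial genome. In a comparison of annotated transcripts (blastn, at least 100 bases at 95% identity), Gm28661 matched mt-Co2 over 681 bases, Gm28437 matched mt-Co3 over 783, Gm10925 matched mt-Atp6 over 678, Gm10222 matched mt-Nd4l over 294 and Gm28439 matched mt-Nd4 over 876, each at 100% identity. Gm28438 differed from mt-Nd3 at 1 of 345 aligned bases (T3C, counted from 1 at the 5′ end of the mt-Nd3 transcript, mitochondrial base first). Gm29216 differed from mt-Co1 at 1 of 483 aligned bases (A1066T, counted in the same way). Both differences stand in capitals in 30-base windows, because they are the only letters in these alignments that could separate the loci.
mt-Nd3, chrM:9459-9488, plus strand: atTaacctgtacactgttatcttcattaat
Gm28438, chr1:24613090-24613119, minus strand: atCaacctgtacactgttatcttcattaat
mt-Co1, chrM:6390-6419, plus strand: ggaAttgttttatccaactcatcccttgac
Gm29216, chr1:24616159-24616188, minus strand: ggaTttgttttatccaactcatcccttgac

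Another 4 pseudogenes passed the same limits at lower identity: Gm13340 (97.6% to mt-Co1), Gm13341 (95.9% to mt-Co2), Gm13339 (96.7% to mt-Nd2) and Gm4076 (95.2% to mt-Nd5). A 60-base window of mt-Co2, the one in which its chromosome 2 copy differs most, is shown with its chromosome 1 and chromosome 2 copies, since mt-Co2 is the mRNA with the largest share of counts on a copy. The chromosome 1 sequence has 0 differences from mt-Co2 in this window, and Gm13341 has 6, in capitals. All sequences are from the GENCODE M21 transcripts of mm10, written 5′ to 3′.
mt-Co2, chrM:7457-7516, plus strand: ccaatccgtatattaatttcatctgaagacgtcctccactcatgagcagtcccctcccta
Gm28661, chr1:24615062-24615121, minus strand: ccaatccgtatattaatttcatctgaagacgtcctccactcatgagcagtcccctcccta
Gm13341, chr2:22587471-22587530, minus strand: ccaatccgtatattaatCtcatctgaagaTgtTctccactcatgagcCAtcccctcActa

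Mitochondrial RNA was a small share of these cytosolic libraries, and nearly all of it was mRNA. The 37 members held 0.472% of expected counts in replicate 1 (95% Wilson interval 0.470 to 0.475), 0.635% in replicate 2 (0.633 to 0.637) and 1.03% in replicate 3 (1.028 to 1.033), a mean of 0.713 ± 0.287% (SD, n = 3). The intervals do not overlap, so the 3 libraries differed by more than counting error; intervals and floors given here cover counting error only. In bulk samples, fewer cells of a type and less RNA per cell cannot be told apart. mt-Co1, the catalytic subunit of cytochrome c oxidase, alone made up 44.2, 43.1 and 42.4% of the members' counts in replicates 1, 2 and 3. Without it the other 36 members held 0.406% of counts on average.

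The copies on nuclear chromosomes held a further 0.278 ± 0.116% of counts (SD, n = 3). The 11 pseudogenes at 95% identity or more took 0.181, 0.246 and 0.407% of expected counts in replicates 1, 2 and 3, and 7 of them, the chromosome 1 run, took nearly all of that. Of the counts assigned to members and copies together, the copies held 27.7, 27.9 and 28.3% in the same order, a share that moved little although the summed counts ran from 171950 in replicate 1 to 809249 in replicate 3. In the kallisto-format tables, a second estimate deposited for the same libraries, the copies held 18.9, 16.8 and 16.9%. Of the 18 further pseudogenes at 80 to 95% identity, 1 had any expected count and 3 had at least 1 kallisto-format count. No copy outside the chromosome 1 run exceeded 28 expected counts or 78 kallisto-format counts in any library.

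The division between a mitochondrial gene and its copy differed from gene to gene. mt-Co2, a copper-binding core subunit of cytochrome c oxidase, had 399, 912 and 651 expected counts in replicates 1, 2 and 3, and Gm28661 had 18663, 36001 and 81850. The copy thus held 97.9, 97.5 and 99.2% of the pair's counts, and 95.5, 92.9 and 93.8% in the kallisto-format tables. mt-Co3, the third core subunit, had 3026, 4755 and 5502 counts, and Gm28437 had 14642, 32437 and 74065. mt-Atp6, the membrane subunit of the proton channel of ATP synthase, had 2894, 4456 and 8456 counts, and Gm10925 had 9403, 21785 and 49206.

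For mt-Atp6, mt-Nd4l, mt-Nd3 and mt-Co3 the tables differed on the locus. The kallisto-format tables gave mt-Atp6 13073, 28195 and 63688 counts in replicates 1, 2 and 3, and gave Gm10925 19.8, 25.3 and 37.4. mt-Nd4l, a small membrane subunit of complex I, had 1008, 2022 and 4501 expected counts and Gm10222 had 766, 2171 and 5918, while the kallisto-format tables put all counts of this pair on mt-Nd4l. mt-Nd3, another membrane subunit of complex I, kept 974, 1955 and 4390 expected counts against 1181, 2160 and 4602 on Gm28438, which differs from it by a single base. In the kallisto-format tables mt-Nd3 was instead the higher of this pair in all 3 libraries, with 1422, 2168 and 5221 counts against 824, 2146 and 4428. The copy of mt-Co3 held 82.9, 87.2 and 93.1% of the pair's expected counts but 58.6, 49.2 and 56.8% of its kallisto-format counts. Where the sequences are identical, the locus of a read cannot be told apart by its letters.

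mt-Co1 and mt-Nd4 lost little to the chromosome 1 run. Its matching stretches cover only part of each, and whether that bears on the counts was not tested. mt-Co1 had 54926, 114761 and 245830 expected counts in replicates 1, 2 and 3, against 3026, 8551 and 13455 on Gm29216. mt-Nd4, a proton-pumping subunit of complex I, had 12872, 27825 and 63375, and Gm28439 had 0 in all 3. In the kallisto-format tables Gm28439 had 1.3e-05, 450 and 2362 counts, against 13746, 29642 and 68128 on mt-Nd4. The other 6 mRNAs, mt-Nd1, mt-Nd2, mt-Atp8, mt-Nd5, mt-Nd6 and mt-Cytb, have no annotated copy in the run. Sequence outside annotated transcripts was not compared. This includes the stretch of chromosome 1 between the copies of mt-Co2 and mt-Atp6, the mRNAs on either side of mt-Atp8.

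**Figure D1:**
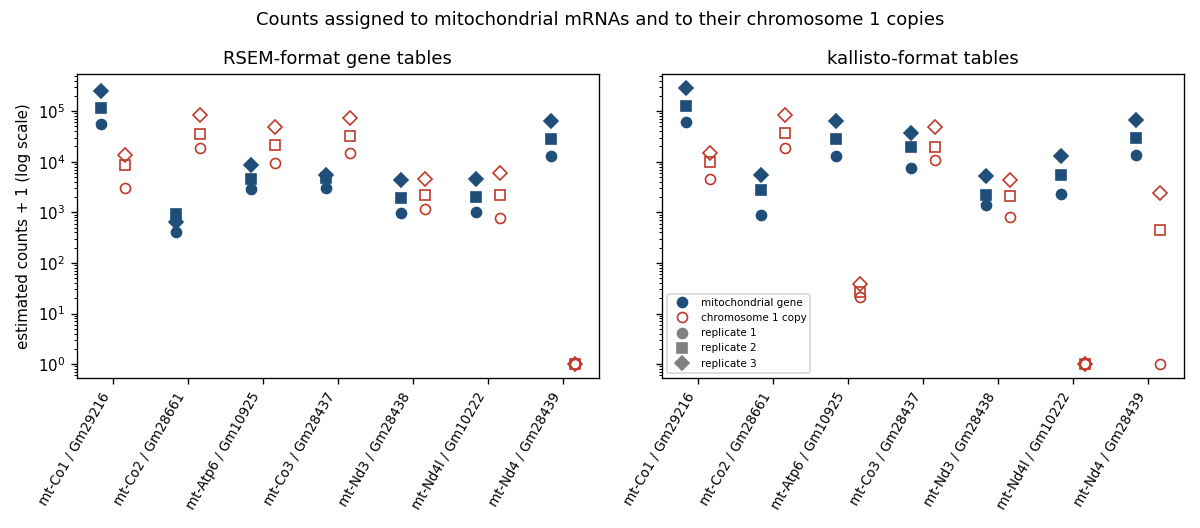
Estimated counts plus 1 (log scale) of the 7 mRNAs with a chromosome 1 copy (filled) and of that copy (open) in replicates 1, 2 and 3, in the RSEM-format gene tables on the left and the kallisto-format tables on the right. Gm28661 lies far above mt-Co2 in both, whereas for mt-Atp6, mt-Nd4l, mt-Nd3 and mt-Co3 the split between gene and copy differs between the tables. Gm28439, the copy of mt-Nd4, has 0 counts on the left and 450 and 2362 in replicates 2 and 3 on the right.

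The authors deposited 2 TPM estimates per gene, a maximum likelihood value and a posterior mean, and these parted for mt-Co2, mt-Co3 and mt-Atp6. The maximum likelihood TPM of mt-Co2 was 18.64, 23.03 and 12.64 in replicates 1, 2 and 3, and its posterior mean was 114.16, 126.90 and 185.43. For mt-Co3 the maximum likelihood values were 115.75, 98.96 and 88.04 and the posterior means 279.21, 327.41 and 481.75. For mt-Atp6 they were 136.02, 113.23 and 165.20 against posterior means of 185.20, 203.59 and 255.57. mt-Nd3 and mt-Nd4l did not part in this way, at means of 209 ± 71.1 and 326 ± 106 TPM by maximum likelihood and 208 ± 73.7 and 319 ± 109 as posterior mean (SD, n = 3 each). mt-Nd1, with no copy in the run, had 304.80, 363.86 and 636.41 by maximum likelihood and 296.96, 358.58 and 629.05 as posterior mean. Levels are therefore given in both ways for genes with a copy: as deposited (maximum likelihood), and with the counts of their copies at 95% identity or more added to the member's own, at the member's effective length.

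All 13 mRNAs and both rRNAs reached a TPM of 1 in all 3 libraries, so 15 of 37 members were detected, against 17.0% of all annotated genes and 41.0% of protein-coding genes. The median mRNA level was 223, 261 and 448 TPM in replicates 1, 2 and 3 (311 ± 120, SD, n = 3), and 457 ± 156 TPM with copies added. Among 22028 protein-coding genes, mt-Co1 ranked 27, 17 and 12 by TPM in replicates 1, 2 and 3. mt-Co2 ranked 2220, 1480 and 2695 as deposited and 27, 19 and 13 with copies added. mt-Co3 ranked 320, 307 and 348 as deposited and 37, 25 and 16 with copies added.

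Among the complex I subunits, which accept electrons from NADH, mt-Nd1 was the highest of the 7 as deposited and mt-Nd2 the lowest. mt-Nd2 had 123.87, 147.94 and 268.62 TPM in replicates 1, 2 and 3. mt-Nd4 had 237.28, 283.30 and 495.77 TPM, and mt-Nd5, the subunit at the far end of the membrane arm, had 202.49, 252.95 and 445.07. Each of these was highest in replicate 3, and none has counts on a copy in the gene tables. mt-Nd3 averaged 209 ± 71.1 TPM as deposited and 440 ± 135 with copies added, and mt-Nd4l averaged 326 ± 106 TPM as deposited and 684 ± 308 with copies added (SD, n = 3 each). With copies added, mt-Nd4l and not mt-Nd1 was therefore the highest complex I mRNA by TPM. The effective length of mt-Nd4l was short, at 79.45, 91.55 and 91.42 bases in replicates 1, 2 and 3, against 725.65, 741.87 and 741.48 for mt-Nd1.

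mt-Cytb, the cytochrome b of complex III and the only subunit of that complex encoded in mitochondria, had 291.70, 357.92 and 612.47 TPM in replicates 1, 2 and 3. It stayed just below mt-Nd1 in every library, by 0.05 ± 0.02 on the log2 TPM scale. The 5 mRNAs with no annotated chromosome 1 copy other than mt-Atp8 lay close together: the highest exceeded the lowest by 2.46, 2.46 and 2.37 times in replicates 1, 2 and 3.

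As deposited, the complex IV subunits covered the widest range of the 4 complexes. mt-Co1 had 883.78, 1021.72 and 1681.51 TPM in replicates 1, 2 and 3, mt-Co3 averaged 101 ± 14.0 TPM and mt-Co2 18.1 ± 5.22. mt-Co1 exceeded mt-Co2 by 47.4, 44.4 and 133 times as deposited. With copies added the same 3 genes averaged 1268 ± 446 TPM for mt-Co1, 1141 ± 399 for mt-Co2 and 908 ± 320 for mt-Co3 (SD, n = 3 each), and mt-Co1 exceeded mt-Co2 in all 3 libraries by 0.15 ± 0.08 on the log2 TPM scale.

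The ATP synthase pair, mt-Atp8 and mt-Atp6, is read from 1 transcript in which the 2 reading frames overlap by 43 bases. The overlap, mitochondrial bases 7927 to 7969, is shown in capitals with 30 bases on each side (chrM:7897-7999, plus strand), because its letters belong to both genes and alone cannot assign a read to either.
mt-Atp8 and mt-Atp6: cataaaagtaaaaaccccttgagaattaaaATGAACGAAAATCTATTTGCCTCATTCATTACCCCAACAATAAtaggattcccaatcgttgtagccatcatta
mt-Atp8, a short membrane subunit, had 1482.04, 1991.45 and 3137.04 TPM in replicates 1, 2 and 3, and was the highest member in each. Its effective length, the number of start positions left for a fragment of the library's size, was listed at 20.54, 24.57 and 25.02 bases for a gene of 204 bases. The level thus rests on 1440, 4132 and 8630 expected counts divided by a very short length. The kallisto-format TPM of mt-Atp8 was 282, 486 and 593, below the kallisto-format TPM of mt-Co1 (365, 516 and 683) in all 3 libraries.

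A second overlap joins mt-Nd4l and mt-Nd4, which share 7 bases (chrM:10137-10203, plus strand, with 30 bases on each side, shared bases in capitals).
mt-Nd4l and mt-Nd4: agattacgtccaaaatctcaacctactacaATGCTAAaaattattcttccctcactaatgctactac
In all, 16 members overlap another, in 9 pairs. The overlap of mt-Nd5 with mt-Nd6, 14 bases, lies on opposite strands. Of the 13 mRNAs, 9 open with ATG, 8 end in TAA and 2 in TAG, and the other 3 (mt-Co3, mt-Nd4 and mt-Cytb) have lengths that are not a multiple of 3 and end in a bare T; in such mitochondrial mRNAs the stop codon is known to be completed by the poly(A) tail.

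**Figure D2:**
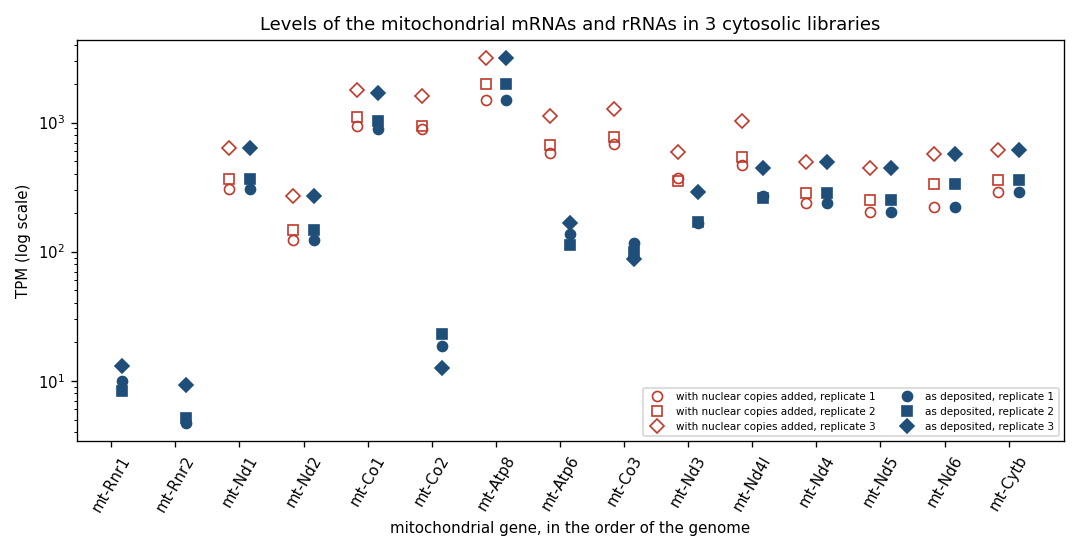
TPM (log scale) of the 13 mitochondrial mRNAs and 2 rRNAs, in the order of the genome, in replicates 1, 2 and 3, with the counts of nuclear copies added (open red) and as deposited (filled blue). mt-Co2, mt-Atp6 and mt-Co3 move up most when copies are added, and both rRNAs lie below nearly every mRNA.

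In order of mean log2 TPM as deposited, mt-Atp8 was followed by mt-Co1, mt-Nd1, mt-Cytb, mt-Nd6, mt-Nd4, mt-Nd4l, mt-Nd5, mt-Nd3, mt-Nd2, mt-Atp6, mt-Co3 and mt-Co2. A neighbouring pair was called ordered where the sign was the same in all 3 libraries and the mean difference exceeded its SD, and 8 of 12 pairs were. The pairs mt-Nd6 and mt-Nd4, mt-Nd4 and mt-Nd4l, mt-Nd4l and mt-Nd5, and mt-Nd2 and mt-Atp6 did not differ beyond their spread. With copies added the order was mt-Atp8, mt-Co1, mt-Co2, mt-Co3, mt-Atp6, mt-Nd4l, mt-Nd3, mt-Nd1, mt-Cytb, mt-Nd6, mt-Nd4, mt-Nd5 and mt-Nd2, and 10 of 12 pairs were ordered. There the pairs mt-Nd3 and mt-Nd1, and mt-Nd6 and mt-Nd4, did not differ beyond their spread.

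The range from the highest to the lowest mRNA depended on the same counts. As deposited it was 79.5-fold in replicate 1, 86.5-fold in replicate 2 and 248-fold in replicate 3. With copies added it was 11.96-, 13.5- and 11.7-fold, and without mt-Atp8 it narrowed to 7.53-, 7.42- and 6.60-fold.

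mt-Nd6, a complex I subunit, is the only mRNA annotated on the minus strand; its letters are 28.1% G and 5.97% C, while those of the other 12 mRNAs are 5.88 to 16.1% G and 22.1 to 29.97% C. It had 223.29, 334.39 and 565.42 TPM in replicates 1, 2 and 3. Relative to the median of the 12 plus-strand mRNAs it stood at 0.03, 0.38 and 0.34 on the log2 TPM scale as deposited (0.25 ± 0.19, SD, n = 3). With copies added the difference was -0.90, -0.41 and -0.52 (-0.61 ± 0.26), so the sign turned in all 3 libraries. In the kallisto-format tables it was -0.21, 0.01 and 0.05 as deposited (-0.05 ± 0.14), which is within the spread of 0 and below it in replicate 1 alone, and -0.50 ± 0.24 with copies added. Without counting by strand, reads of mt-Nd6 and of RNA from the opposite strand across it cannot be told apart.

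Both rRNAs of the mitochondrial ribosome were low in these ribosome-depleted libraries. The 12S rRNA mt-Rnr1 had 339, 521 and 1051 expected counts in replicates 1, 2 and 3, or 9.90, 8.34 and 12.92 TPM. The 16S rRNA mt-Rnr2, encoded downstream of it, had 299, 596 and 1392 counts, or 4.68, 5.16 and 9.26 TPM. The median mRNA exceeded the mean of the rRNAs by 30.6, 38.7 and 40.4 times, and mt-Nd1, the first mRNA after the rRNAs, exceeded mt-Rnr2 by 65.1, 70.5 and 68.7 times. Since rRNA was removed from the libraries, these ratios describe the libraries and not the cells. The ratio of 16S to 12S was 0.473, 0.619 and 0.717 (0.603 ± 0.123, SD, n = 3) in the gene tables and 0.870, 1.03 and 1.81 (1.23 ± 0.501) in the kallisto-format tables, and only in the kallisto-format ones, in replicates 2 and 3, was 16S above 12S.

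The mitochondrial tRNAs, 59 to 75 bases long, were beyond the reach of the gene tables. All 22 were listed with an effective length of 0 and 0 expected counts in all 3 libraries, so they cannot be called absent. For comparison, the effective length of mt-Co1 was 231, 215 and 216 bases shorter than the gene itself in replicates 1, 2 and 3. The kallisto-format tables gave tRNAs 250, 436 and 1108 counts in all, and 6 of them reached a kallisto-format TPM of 1 in all 3 libraries: mt-Tn, mt-Tc, mt-Ty, mt-Ts1, mt-Te and mt-Tp. The sequences of the 4 with the most counts are shown with the anticodon in capitals; each reads the amino acid in the gene's symbol (proline, glutamate, serine and cysteine).
mt-Tp, chrM:15356-15422, minus strand: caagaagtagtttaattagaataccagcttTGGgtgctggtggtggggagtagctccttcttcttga
mt-Te, chrM:14071-14139, minus strand: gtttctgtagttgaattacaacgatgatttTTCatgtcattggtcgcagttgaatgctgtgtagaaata
mt-Ts1, chrM:6870-6938, minus strand: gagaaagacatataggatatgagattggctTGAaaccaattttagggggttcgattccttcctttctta
mt-Tc, chrM:5192-5257, minus strand: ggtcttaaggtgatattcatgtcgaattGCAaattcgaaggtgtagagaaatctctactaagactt

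All 6 detected tRNAs lie on the minus strand. The 8 minus-strand tRNAs held 241, 423 and 1066 kallisto-format counts in replicates 1, 2 and 3, against 9, 13 and 42 for the 14 plus-strand tRNAs, so 96.4, 97.0 and 96.2% of tRNA counts were on the minus strand. mt-Tp had 117, 230 and 408 counts, mt-Ts1 had 42, 61 and 161, and mt-Tc had 24, 36 and 102. mt-Te, the tRNA next to mt-Nd6, had 21, 39 and 257 counts, or 0.673, 0.796 and 3.53 CPM (counts after division by the library's total), and stood out in replicate 3. mt-Ty, with 14, 25 and 55 counts, and mt-Tn, with 17, 26 and 54, were lower. mt-Ta (4, 2 and 12), mt-Tq (2, 4 and 17) and mt-Tm (1, 3 and 10), the last of these on the plus strand, reached 10 counts in 1 library. mt-Tv, mt-Td and mt-Tl2 had 0 counts in all 3 libraries, which allows up to 3 counts each, or 0.0962, 0.0613 and 0.0412 CPM in replicates 1, 2 and 3. The other 10 tRNAs had between 0 and 8 counts per library. The limit on strand given for mt-Nd6 holds for these tRNAs as well.

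**Figure D3:**
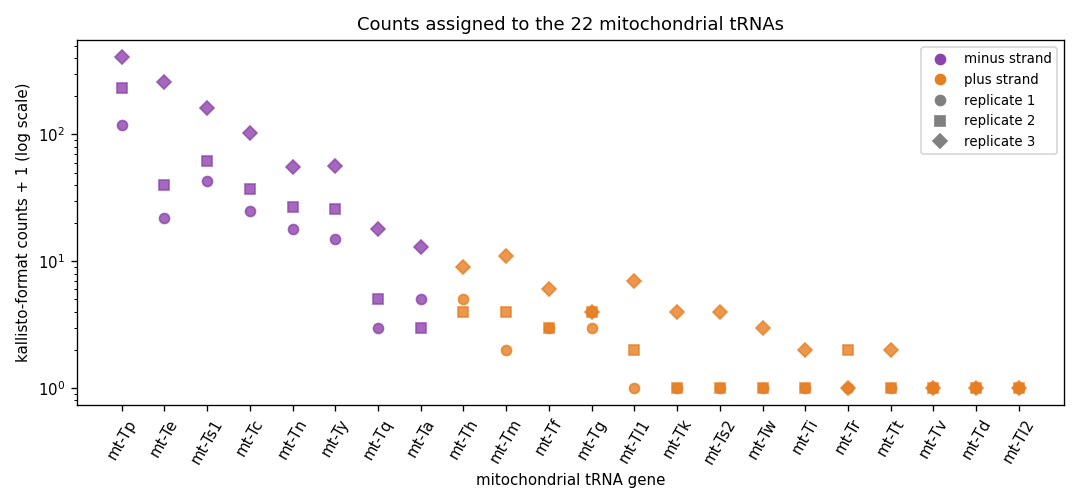
Kallisto-format counts plus 1 (log scale) of the 22 mitochondrial tRNAs in replicates 1, 2 and 3, minus-strand genes (purple) left and plus-strand genes (orange) right. The 6 genes with at least 10 counts in every library are all on the minus strand, and no plus-strand gene exceeds 10 counts.

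Mitochondrial mRNAs were compared with nuclear mRNAs for subunits of the same complexes, as the difference of median log2(TPM + 1) within each library. For complex I, the 7 mitochondrial mRNAs had medians of 223, 261 and 448 TPM in replicates 1, 2 and 3, and the 36 nuclear ones 28.9, 23.8 and 19.6, a difference of 3.59 ± 0.79. All 36 nuclear subunits reached a TPM of 1 in every library; the highest were Ndufa1 (70.9 ± 12.4 TPM), Ndufa3 (62.4 ± 18.1) and Ndufb8 (60.1 ± 10.5), and the lowest was Ndufb4 (7.10 ± 1.71). In complex III, mt-Cytb exceeded the median of 9 nuclear subunits (59.2, 50.1 and 47.6 TPM) by 2.92 ± 0.69. The highest of these 9 were Uqcrh (86.4 ± 18.7 TPM), Uqcrb (69.9 ± 13.3) and Uqcr11 (69.2 ± 13.4), and the lowest was Cyc1, the cytochrome c1 gene (10.1 ± 1.25).

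Complex IV was the exception as deposited. The medians of mt-Co1, mt-Co2 and mt-Co3 were 116, 99.0 and 88.0 TPM in replicates 1, 2 and 3, and those of 11 nuclear subunits 101, 82.2 and 78.5, a difference of 0.21 ± 0.05. With copies added the mitochondrial medians were 890, 932 and 1602 TPM and the difference was 3.65 ± 0.62; in the kallisto-format tables as deposited it was 2.06. Among the nuclear subunits Cox4i1 (213 ± 43.3 TPM), Cox8a (113 ± 8.30) and Cox6c (106 ± 19.2) were highest and Cox7b lowest (26.3 ± 6.23). For ATP synthase, the 2 mitochondrial mRNAs had medians of 809, 1052 and 1651 TPM in replicates 1, 2 and 3. The 15 nuclear ones found under the listed symbols had 68.0, 52.2 and 49.2. A median of 2 genes is their midpoint, so the mitochondrial values rest largely on mt-Atp8, with its very short effective length. The difference was taken between medians of log2 values, so the printed TPM medians do not give it. It was 2.71, 3.17 and 3.85 in the same order, or 3.24 ± 0.57 (4.47 ± 0.74 with copies added). Atp5b (152 ± 25.9 TPM), Atp5l (117 ± 32.9) and Atp5e (91.4 ± 25.5) were the highest nuclear ones and Atp5g1 the lowest (25.9 ± 5.97).

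**Figure D4:**
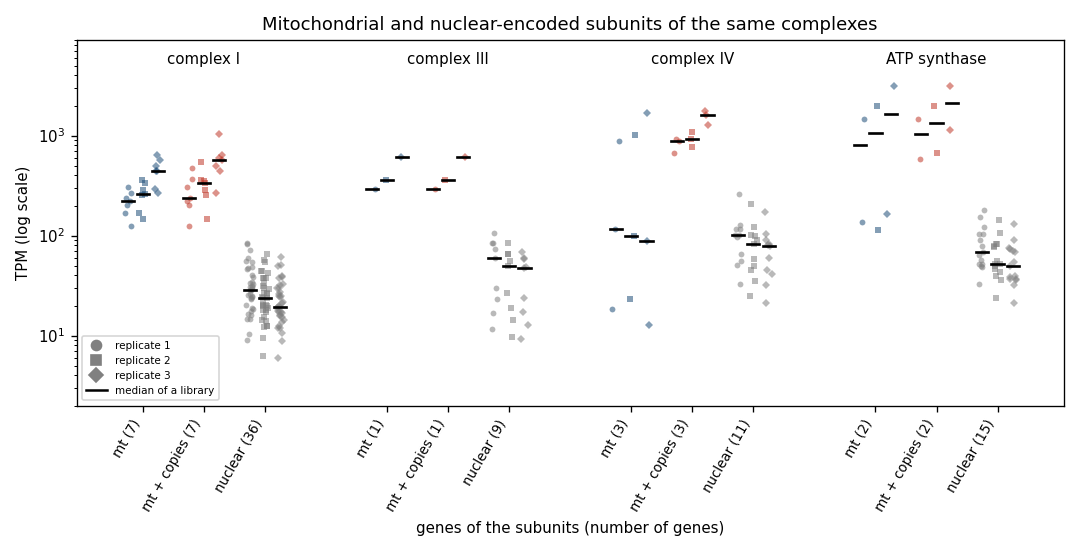
TPM (log scale) of mitochondrial mRNAs as deposited (blue), the same with copies added (red) and nuclear-encoded subunits (grey), for 4 complexes; each point is 1 gene in 1 library and each bar the median of a library. Mitochondrial medians lie above nuclear ones in every complex, but in complex IV as deposited the medians are close, at 116, 99.0 and 88.0 TPM against 101, 82.2 and 78.5.

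Nuclear genes that serve the expression of the mitochondrial genome had lower median levels per length than its mRNAs: 1.76 to 2.32 TPM for replication and transcription, 3.52 to 4.72 for RNA processing, 2.77 to 3.35 for translation factors and 7.37 to 9.59 for ribosomal proteins over the 3 libraries. As deposited, mt-Co2 (18.1 ± 5.22 TPM), the lowest of the mRNAs, lay above these medians in every library, but its mean was below those of several of the highest genes of these lists. Of 17 genes for its replication and transcription, 13 reached a TPM of 1 in all 3 libraries; Ssbp1, the single-stranded DNA binding protein, had 6.45 ± 0.484 TPM, the RNA polymerase gene Polrmt 4.64 ± 1.94 and the termination factor family member Mterf3 4.17 ± 0.910, while Mterf2 was lowest at 0.153 ± 0.0643. All 21 genes for mitochondrial RNA processing and stability reached it, led by Slirp (19.0 ± 4.31 TPM), an RNA-stabilising partner of Lrpprc, Rexo2 (18.7 ± 2.81), an exonuclease, and Grsf1 (13.2 ± 2.02), an RNA granule protein, with Fastkd5 lowest (1.46 ± 0.0513). All 12 translation factors reached it, from the elongation factor Tufm (10.9 ± 1.73 TPM), Oxa1l (9.01 ± 1.19) and Gfm1 (6.04 ± 0.436) down to Mtrf1l (1.29 ± 0.354). All 78 mitochondrial ribosomal protein genes reached it, led by Mrps21 (72.3 ± 15.04 TPM), Mrpl33 (30.7 ± 6.36) and Mrpl52 (28.5 ± 5.51), with Mrpl19 lowest (1.81 ± 0.269). Of 11 genes of the outer membrane and of mitophagy, the removal of mitochondria, 10 reached it; Vdac1 (51.9 ± 4.01 TPM), Vdac2 (49.5 ± 8.04) and Bnip3l (28.6 ± 1.09) were highest.

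The 3 libraries stood apart in mitochondrial mRNA more than in most other genes. Relative to the mean of the other 2 libraries, in log2 CPM after TMM scaling, the median mitochondrial mRNA stood at -0.90 in replicate 1, -0.12 in replicate 2 and 1.04 in replicate 3, against -0.01, 0.00 and 0.00 for the median of 12413 genes. In replicate 3, 11 of 13 mRNAs and both rRNAs lay more than 0.5 above the other 2 libraries, against 7.89% of all genes. In replicate 1, 10 of 13 mRNAs and mt-Rnr2 lay more than 0.5 below, against 7.00% of all genes. The highest value of 11 of 13 mRNAs and both rRNAs was in replicate 3, against 36.1% of all genes. There is 1 group, so no test was made; an exact sign-flip test over 3 libraries could not go below p = 0.25.

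mt-Co2 and mt-Co3 were the exceptions in replicate 3, at -0.59 and -0.16. In replicate 1 the exceptions were mt-Co2 (-0.14), mt-Co3 (0.05) and mt-Atp6 (-0.28). With copies added, mt-Co2 and mt-Co3 stood at 0.94 and 0.94 in replicate 3. All 13 mRNAs then lay more than 0.5 above in replicate 3 and more than 0.5 below in replicate 1. The ratio of CPM in replicate 3 to replicate 1 ran from 2.32 to 2.90 over the 6 mRNAs with no annotated chromosome 1 copy, highest for mt-Nd6, and from 0.763 to 2.30 over the 7 with one, lowest for mt-Co2. With copies added the 7 ran from 1.95 to 2.75. For mt-Rnr1 it was 1.45 and for mt-Rnr2 2.18.

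The nuclear genes for the same complexes did not share this order. The median shift in replicate 3 was -0.20 for nuclear subunits of complex I, -0.18 for complex III, -0.20 for complex IV, -0.23 for ATP synthase and -0.16 for mitochondrial ribosomal proteins, and no gene of these 5 lists lay more than 0.5 above. Genes for replication and transcription of the mitochondrial genome stood at 0.08 and those for processing its RNA at -0.05. Of 78 cytosolic ribosomal protein genes, 75 reached a TPM of 1 in every library and were measured here, with a median shift of -0.35 in replicate 3; Rpl41 (796 ± 108 TPM), Rps29 (750 ± 151) and Rps27 (564 ± 205) were highest and Rpl10l was at 0. RNAs known to stay in the nucleus did move with replicate 3: 5 of 7 were measured, all 5 lay more than 0.5 above, and their median was 2.40. Malat1 had 224, 207 and 1008 TPM in replicates 1, 2 and 3, Neat1 had 18.7, 16.7 and 92.5, and Airn averaged 0.347 ± 0.131; Meg3 and Miat were at 0. The summed levels of these 7 genes, mostly Malat1, were 243, 224 and 1102 TPM, lowest in replicate 2, whereas mitochondrial mRNAs were lowest in replicate 1. After TMM scaling the shift of Malat1 was nearly the same in replicates 1 and 2, at -1.36 and -1.33. The median shift of the 5 measured was -0.38 and -1.33. Rn7sk, the gene of the small nuclear 7SK RNA, had 8942, 18430 and 21619 CPM in replicates 1, 2 and 3, lowest and highest in the same libraries as the mitochondrial mRNAs. Replicate 3 also had the most counts, and the part of depth or of nuclear RNA in the mitochondrial shift was not tested.

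**Figure D5:**
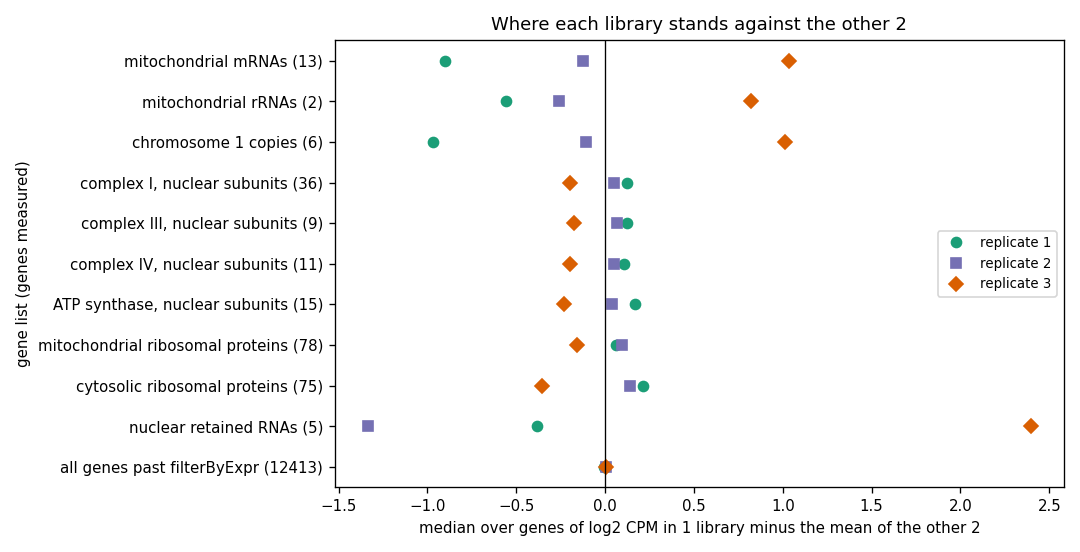
Median over the genes of each list of log2 CPM in 1 library minus the mean of the other 2, for replicates 1, 2 and 3, with the number of genes measured in brackets. Mitochondrial mRNAs (-0.90, -0.12 and 1.04) and the chromosome 1 copies share their order, while nuclear subunits of the same complexes lie between -0.23 and 0.17.

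The spread of single members over the 3 libraries followed the same pattern. The SD of TMM log2 CPM had a median of 0.65 over the 13 mRNAs, against 0.12 over all genes, and without replicate 3 the median of the mRNAs was 0.36. mt-Nd6 varied most, with an SD of 0.82, above 97.6% of genes. mt-Co3 varied least as deposited, with an SD of 0.10, above 38.8% of genes, and with copies added its SD was 0.59. mt-Atp6 had an SD of 0.31 as deposited and 0.62 with copies added.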

How the data were processed

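Total RNA-seq was read from 3 libraries of 1 group. Per the file headers, the authors deposited expected counts (estimated reads per gene, not whole numbers) and TPM in RSEM-format gene and transcript tables, and expected counts and TPM in kallisto-format transcript tables; mm10 and GENCODE M21 are named in the labels and notes deposited with them. Versions of the aligner and counter are not given in the sources used here. All 55536 annotated genes among 81881 entries were used; totals were 26318761, 41897257 and 56290298 counts in replicates 1, 2 and 3, and a count of 0 allows up to 3.

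Kallisto-format values were summed per gene. Nuclear copies were found with blastn 2.17.0. Rounded expected counts were scaled with edgeR 4.0.16 (TMM, filterByExpr, prior count 2), which kept 12413 genes; the steps were tested on simulated data. No test between conditions was possible. Each gene list names its 3 highest members and its lowest (for 1 list the lowest is not reported here), and tRNAs with 10 counts in any library are named. Where a symbol had more than 1 gene identifier, the one with more counts was kept. Members and lists were chosen with earlier results of these data known. Alternatives were posterior mean and kallisto-format TPM, other pseudocounts, limits and identities, DESeq2 1.42.0 size factors, and libraries left out in turn.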

Additional observations from a re-analysis of the deposited data

How the results depend on the processing

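Of 95 alternative values of the main results, 83 kept their direction and stayed within the spread between replicates, or for counts within 1.5 times. With 3 libraries, leaving 1 out cannot move a mean by more than its SD, so such values were bound to stay within it. For the order of the mRNAs only the number of ordered pairs was compared, 8 of 12 in both formats. The order itself differed: in the kallisto-format tables mt-Co1 stood above mt-Atp8, and mt-Atp6 above mt-Nd4l and mt-Nd1. Adding the counts of nuclear copies, an alternative chosen after seeing the data, moved the median mRNA level to 457 TPM, against 311 as deposited, and the difference from nuclear subunits to 3.65 in complex IV and 4.47 in ATP synthase, and it reversed mt-Nd6 against the other mRNAs to -0.61. Kallisto-format TPM gave 171 for the median level, 1.23 for the ratio of 16S to 12S, 2.06 for complex IV, 3.90 for ATP synthase and -0.049 ± 0.140 for mt-Nd6, a mean below 0 through replicate 1 alone and within the spread of 0. The lower median level was not particular to mitochondrial mRNAs. Their difference from nuclear subunits was 3.55 in complex I and 2.83 in complex III, against 3.59 and 2.92 as deposited. Leaving out mt-Co1, also chosen after seeing the data, lowered the share of counts to 0.406%. The RSEM-format transcript tables gave 0 detected tRNAs, against 6 in the kallisto-format tables. With each library left out in turn, the median SD of the mRNAs ran from 0.36 to 0.91 and the share of counts from 0.554 to 0.833%. Of 90 values of single genes, 69 stayed within the spread between replicates and 21 moved. Many of the 69 could not have moved: those with 1 library left out, and those with copies added for genes that have no counts on a copy. The causes were not tested, beyond what each alternative changes by construction. No paired analysis was possible because there is 1 group.

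Precision is limited by 3 libraries and by at most 408 counts per tRNA. For mt-Co2, mt-Co3, mt-Atp6, mt-Nd3 and mt-Nd4l, counts are also divided with a chromosome 1 copy of the same or nearly the same sequence. The part of depth in the precision of these 5 genes was not tested.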
